A study of Mus musculus with 12 samples.

Results

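Interferon-stimulated genes are the genes that cells switch on when an interferon binds its receptor. The 9 described here were Stat2, Irf9 and Irf7, Isg15 and Usp18, Ifit1 and Ifit3, Rsad2, and Ifi27. They were taken by symbol, and 9 of 9 were present in both deposited count tables, which share 21976 genes. The RNA came from skeletal muscle of C57BL/6N mice, an inbred laboratory strain, in 12 libraries of 3 per group. Mice entered their diets at 6 weeks of age and stayed on them for 18 weeks. The PCN group ate a high-fat diet and received pregnenolone 16α-carbonitrile, an agonist of the rodent pregnane X receptor, intraperitoneally at 50 mg/kg once a day for 4 days. The Vehicle group ate the same high-fat diet and was injected on the same schedule with the carrier alone, corn oil holding 30% DMSO. The HFD group ate the high-fat diet and the Chow group ate standard chow, and for both no injection is given. No genetic modification is named for any group. Which muscle was sampled, and whether each library is one mouse, are not given, so p-values measure the spread between these libraries, which may be technical in part.

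Type I interferons bind the Ifnar1 and Ifnar2 receptor and activate the kinases Jak1 and Tyk2, which phosphorylate Stat2. Stat2 and Irf9 are subunits of the complex ISGF3, which binds the interferon-stimulated response element (ISRE) in the promoters of target genes. Many targets are expressed at a low tonic level in unstimulated tissue, and several code for the pathway's own factors and brakes.

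The core of this element can be read in the promoters of some members. RefSeq promoter windows (GRCm38.p6), from 250 bases before to 50 bases after the annotated start, were given for 7 of the 9 members; Ifi27 and Usp18 had none. An ISRE core, GAAA NN GAAA or on the other strand TTTC NN TTTC, where N is any base, lay in the windows of 5 of these 7 genes (71.4%), against 1079 of 27025 genes with a window (3.99%). The members were chosen as interferon targets, so that share is a description. The matches are shown with 20 flanking bases on each side, 5′ to 3′ on the strand of the gene, with the bases of the match in capitals. The Isg15 stretch lies at chr4:156200855-156200916 on the minus strand and holds 3 overlapping matches. The Stat2 stretch lies at chr10:128270256-128270305 on the plus strand, and that of Rsad2 at chr12:26456543-26456592 on the minus strand. The Ifit3 stretch lies at chr19:34583353-34583436 and the Ifit1 stretch at chr19:34640765-34640833, both on the plus strand and each with 2 matches.
Isg15: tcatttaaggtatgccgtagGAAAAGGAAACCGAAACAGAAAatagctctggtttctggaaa
Stat2: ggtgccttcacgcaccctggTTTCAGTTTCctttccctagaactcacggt
Rsad2: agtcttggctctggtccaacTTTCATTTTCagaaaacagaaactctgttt
Ifit3: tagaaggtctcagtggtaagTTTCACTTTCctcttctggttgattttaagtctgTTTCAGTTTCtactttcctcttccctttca
Ifit1: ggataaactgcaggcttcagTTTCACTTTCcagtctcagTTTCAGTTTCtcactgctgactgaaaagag
The same letters were absent from the windows of Irf7 and Irf9. The palindromic gamma-activated site TTC NNN GAA, an element of interferon gamma targets, was in 0 of the 7 members' windows, against 9.55% of all genes with a window. A match is a run of letters and was not measured as bound in these mice.

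Libraries held between 12770308 and 19739226 counted reads. Levels are given as CPM, the usual library-scaled read count, after TMM scaling over all 12 libraries. The skeletal muscle fibre markers summed to between 212234 and 418019 CPM, the T and NK cell markers to at most 0.700 CPM, and Cd3e and Ncr1 were each at 0 in 9 libraries. Within the HFD and Chow table, 2 libraries stood apart in fibre type. The 5 slow fibre markers Myh7, Myl2, Myl3, Tnnc1 and Tnnt1 summed to 3.65, 5.30 and 9.24 CPM in HFD 4, 30 and 38, against 11.0, 498 and 536 CPM in Chow 8, 17 and 19, on library totals without TMM scaling. The slow fibre markers of the PCN and Vehicle libraries were not analysed here.

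The interferon-stimulated genes were detected in every group, with Ifi27 well above the other 8. Per kilobase of exon, Ifi27 had the highest mean level of the 9, at 4.30 CPM per kb, which is percentile 81.3 of all genes with a length. Stat2 and Irf9 followed at 0.786 and 0.780 CPM per kb, then Ifit1 and Ifit3 at 0.563 and 0.562 CPM per kb. Rsad2 had 0.412, Irf7 0.340 and Usp18 0.324 CPM per kb, and Isg15 was lowest with 0.152 CPM per kb, percentile 34.1. Over all 12 libraries together Ifi27 collected 1254 reads, Stat2 936, Irf9 831, Rsad2 349, Ifit1 300, Irf7 254, Ifit3 194, Usp18 176 and Isg15 22. With the 4 groups ordered by mean level for each member, 26 of the 27 neighbouring pairs had overlapping ranges. In 25 of the 27 the gap between means was smaller than the larger SD. Neighbours in that order have the closest means, so these counts do not cover groups further apart. The same counts were not made over all genes, so they do not set the members apart. PCN and Chow, at the ends of the order for Ifi27, did not overlap, and the share of all genes was not computed for that pair.

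**Figure D1:**
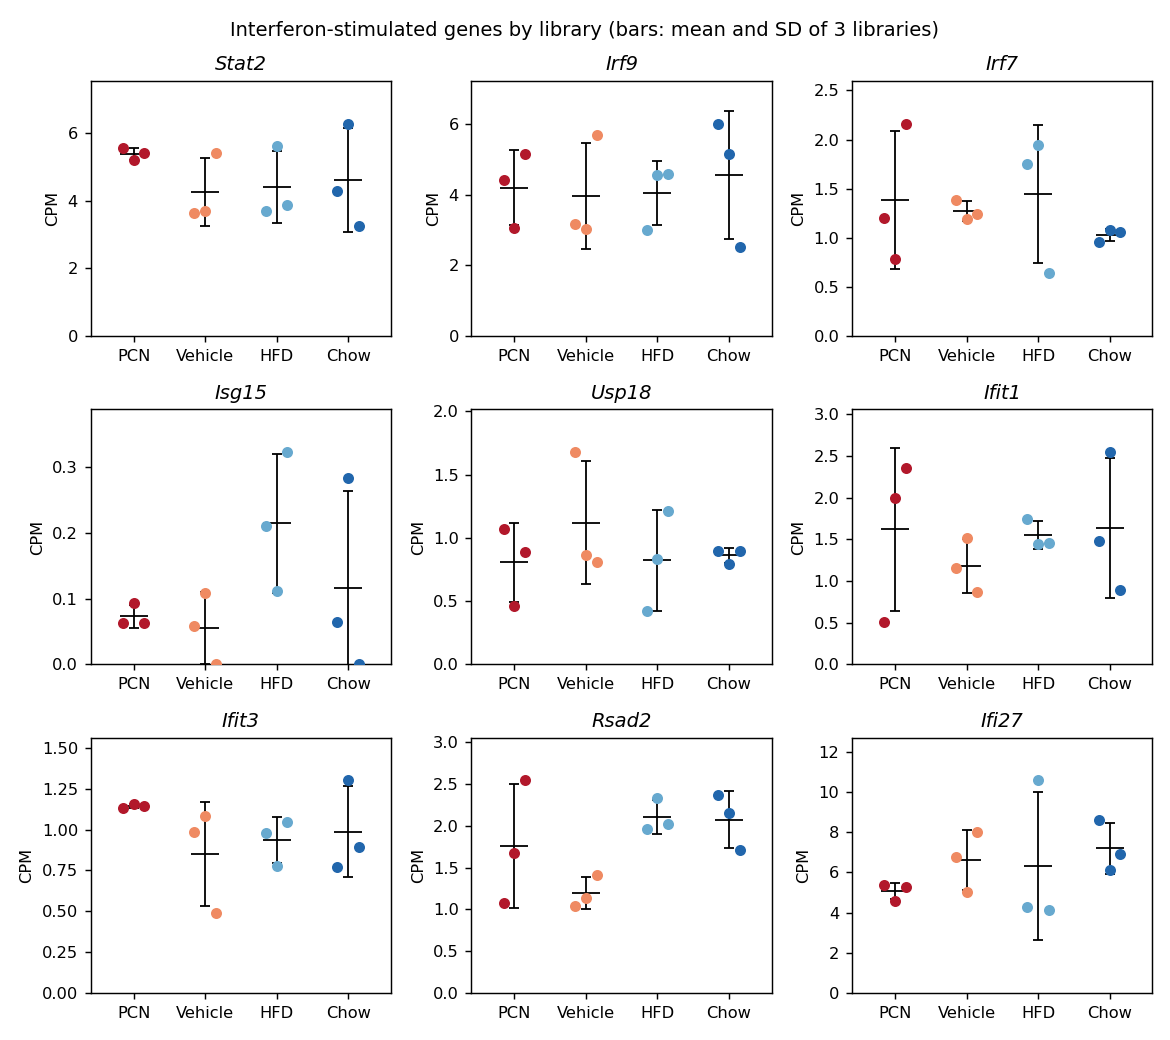
Level of each interferon-stimulated gene in CPM (linear axis from 0) in each library, with the mean and SD of 3 libraries per group, groups from left to right PCN, Vehicle, HFD and Chow. All groups overlap for Stat2, Irf9, Usp18 and Ifit1. For Irf7, Isg15, Ifit3, Rsad2 and Ifi27 some pairs of groups do not. Between 8.48% and 27.1% of all genes tested do not overlap, depending on the comparison. Isg15 has at most 5 reads in any library. Stat2 lies between 5.20 and 5.55 CPM in the 3 PCN libraries. Rsad2 lies between 1.04 and 1.41 CPM in the 3 Vehicle libraries, under the 3 HFD libraries.

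Stat2 and Irf9, both subunits of ISGF3, were the most abundant transcription factors of the set. Stat2 (ENSMUSG00000040033, GRCm38 chromosome 10, 128270559 to 128292849, plus strand) had 5.41, 5.55 and 5.20 CPM in PCN muscle, against 3.65, 3.69 and 5.42 CPM in Vehicle muscle. It had 3.87, 3.71 and 5.62 CPM in HFD muscle and 3.25, 4.29 and 6.28 CPM in Chow muscle. The PCN libraries lay close together and near the top. Vehicle 55, HFD 38 and Chow 19 reached or passed them, so no group stood clear of another. The PCN libraries varied by 3.28%, less than the 11.3% that counting error alone would give, so their closeness means little. Its log2 fold change was 0.34 ± 0.23 (SE) between PCN and Vehicle (95% interval -0.18 to 0.86) and -0.05 ± 0.28 between HFD and Chow (-0.68 to 0.57). Neither passed edgeR's quasi-likelihood test, with Benjamini-Hochberg adjusted p = 0.998 for PCN against Vehicle and 0.972 for HFD against Chow.

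Irf9 (chromosome 14, 55603571 to 55610030, plus strand) is the DNA-binding subunit of ISGF3. It had 5.15, 4.41 and 3.06 CPM in PCN muscle and 3.18, 3.04 and 5.69 CPM in Vehicle muscle. HFD muscle held 4.60, 3.01 and 4.57 CPM, and Chow muscle held 2.52, 6.02 and 5.15 CPM. The lowest and the highest library of all 12 were both Chow, so the spread within that group covered the other 3. The fold changes were small, 0.08 ± 0.32 on the log2 scale for PCN against Vehicle and -0.17 ± 0.32 for HFD against Chow. Irf9 shares 123 exonic bases (2.28%) with Rnf31 on the same strand, and reads there cannot be assigned to one gene.

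Irf7 (chromosome 7, 141262706 to 141266481, minus strand) codes for the factor that amplifies the transcription of type I interferon genes. It had 2.16, 1.20 and 0.789 CPM in PCN muscle and 1.39, 1.19 and 1.25 CPM in Vehicle muscle. It had 0.646, 1.75 and 1.95 CPM in HFD muscle and 1.06, 0.961 and 1.07 CPM in Chow muscle. HFD 30 and HFD 38 lay above all Chow libraries and HFD 4 lay below them. The log2 fold change between HFD and Chow, 0.53 ± 0.42 (95% interval -0.41 to 1.47), was the largest in size of the 8 members tested in that comparison, with edgeR adjusted p = 0.771. Irf7 shares 45 exonic bases (1.19%) with Phrf1 on the opposite strand.

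Isg15 (chromosome 4, 156199424 to 156200818, minus strand) codes for a ubiquitin-like protein that is attached to other proteins. Isg15 was the scarcest member: 4 reads in all in PCN muscle, 3 in Vehicle, 9 in HFD and 6 in Chow. It was at 0 in Vehicle 55 and Chow 8, its highest library had 5 reads, and it was under the count filter in every comparison. No difference in Isg15 was detectable at this depth.

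Usp18 (chromosome 6, 121245906 to 121270917, plus strand) codes for the protease that removes Isg15 from its targets and also dampens signalling at the type I receptor. It had 0.891, 1.07 and 0.464 CPM in PCN muscle, against 1.68, 0.867 and 0.813 CPM in Vehicle muscle. HFD muscle had 1.21, 0.420 and 0.835 CPM and Chow muscle had 0.895, 0.897 and 0.792 CPM. Vehicle 15 was the highest library and the groups overlapped. Its values stood at -0.48 ± 0.47 on the log2 scale for PCN against Vehicle and -0.06 ± 0.44 for HFD against Chow. Of its exonic bases, 124 (4.44%) are shared with the long noncoding gene Gm44148 on the opposite strand; the strand setting of the counting is not given.

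Ifit1 (chromosome 19, 34640871 to 34650009, plus strand) codes for a protein that binds foreign RNA and blocks its translation. It had 2.35, 0.504 and 1.99 CPM in PCN muscle and 1.16, 1.52 and 0.867 CPM in Vehicle muscle. It had 1.45, 1.75 and 1.45 CPM in HFD muscle and 0.895, 1.47 and 2.55 CPM in Chow muscle. PCN 11, with 8 reads, was the lowest library and PCN 5 the second highest, so the PCN group alone spanned most of the range. The log2 fold change for PCN against Vehicle was 0.46 ± 0.52, with a 95% interval from -0.70 to 1.62, the widest of any member there. For HFD against Chow it was -0.09 ± 0.39.

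Ifit3 (chromosome 19, 34583531 to 34588731, plus strand) codes for a related tetratricopeptide repeat protein. It had 1.14, 1.13 and 1.16 CPM in PCN muscle, against 0.984, 1.08 and 0.488 CPM in Vehicle muscle. HFD muscle had 1.05, 0.979 and 0.779 CPM and Chow muscle had 0.895, 0.769 and 1.30 CPM. All PCN libraries were above all Vehicle and all HFD libraries, by small margins and with 18 to 25 reads in each PCN library. Of all genes tested, 8.48% did not overlap between PCN and Vehicle and 27.1% between PCN and HFD. The PCN libraries varied by 1.11%, less than the 24.9% that counting error alone would give, so their closeness means little. The log2 fold changes were 0.43 ± 0.40 for PCN against Vehicle (edgeR adjusted p = 0.998) and 0.31 ± 0.35 for PCN against HFD (edgeR adjusted p = 0.661). Ifit3 has a near-identical neighbour, Ifit3b, so the split of reads between them is uncertain. Ifit3b had a log2 fold change of -0.47 ± 0.52 for PCN against Vehicle. Added together, Ifit3 and Ifit3b came to 2.43 ± 0.527 CPM in PCN muscle and 2.63 ± 1.34 CPM in Vehicle muscle (SD, n = 3 each), and those ranges overlapped.

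Rsad2 (chromosome 12, 26442746 to 26456452, minus strand) codes for viperin, an enzyme that makes an antiviral nucleotide analogue. It had 2.54, 1.07 and 1.67 CPM in PCN muscle and 1.04, 1.14 and 1.41 CPM in Vehicle muscle. It had 2.02, 1.96 and 2.34 CPM in HFD muscle and 1.71, 2.37 and 2.15 CPM in Chow muscle. All Vehicle libraries were below all HFD and all Chow libraries, and the PCN libraries spanned both levels. Vehicle and HFD did not overlap for 23.5% of all genes tested. Vehicle was not tested against Chow, from which it differs in diet as well as injection. The log2 fold change of Vehicle against HFD was -0.81 ± 0.30 (95% interval -1.49 to -0.14), a level 0.569 times that of HFD. It had an unadjusted p = 0.0221 and an edgeR adjusted p = 0.196, so it did not pass the threshold of 0.05 over all genes. For PCN against Vehicle the log2 fold change was 0.56 ± 0.39 and for HFD against Chow 0.03 ± 0.27.

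Ifi27 (chromosome 12, 103434211 to 103440239, plus strand) codes for a small hydrophobic membrane protein. It had 5.28, 5.36 and 4.59 CPM in PCN muscle, against 6.77, 5.04 and 8.02 CPM in Vehicle muscle. It had 4.12, 4.27 and 10.6 CPM in HFD muscle and 6.91, 8.59 and 6.11 CPM in Chow muscle. HFD 38 was the highest library of all 12 while HFD 4 and HFD 30 were the lowest. The log2 fold change for PCN against Vehicle was -0.38 ± 0.23 (95% interval -0.89 to 0.13), and for HFD against Chow -0.15 ± 0.37. Counting error alone would give Ifi27 a coefficient of variation of 9.78%. The 3 libraries varied by 8.29% in PCN, 22.6% in Vehicle, 58.4% in HFD and 17.6% in Chow, and the HFD value carries HFD 38.

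The diet comparison, HFD against Chow, asked whether the high-fat diet changed the transcripts of muscle. Of the 8 members tested, 2 had higher and 6 had lower fitted values, with a median log2 fold change of -0.075 against 0.00043 over all 12686 genes tested. None passed edgeR's test (0 of 8), and none had an unadjusted p under 0.05. Over all genes 0% were called by that test and 7.70% had an unadjusted p under 0.05. DESeq2 also called 0 of the 8 members, against 0.339% of all genes. The authors' deposited table, in which 27 genes are under 0.05, gives the 9 members adjusted p-values between 0.9838 and 0.9998. Leaving out a single library turned the direction of 7 of the 8 members, so the split of 2 against 6 does not give their directions; Irf7 alone stayed higher throughout. The members' summed level was 19.3, 18.0 and 28.2 CPM in HFD 4, 30 and 38, against 18.1, 25.4 and 25.7 CPM in Chow 8, 17 and 19. The lowest Chow sum was that of Chow 8, the Chow library with the lowest slow fibre markers. Without Chow 17 the members' median log2 fold change was -0.027, and without Chow 19 it was 0.11; leaving out HFD 30 also gave a positive median, 0.066. Endothelial markers had lower values in HFD for 5 genes and higher for 2, and 3 of the lower had an unadjusted edgeR p under 0.05. Red blood cell markers were lower for 5 of 5, of which 4 had an unadjusted edgeR p under 0.05. Macrophage markers were higher for 11 and lower for 2. None of these markers passed the test. Whether fibre type or these cell types have a part in the members' levels was not tested. In bulk tissue, fewer cells of a type and less RNA per cell cannot be told apart.

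The drug comparison, PCN against Vehicle, was made within mice on the high-fat diet. Stat2, Irf9, Irf7, Ifit1, Ifit3 and Rsad2 had higher fitted values in PCN muscle, and Usp18 and Ifi27 had lower ones. Irf7 and Irf9 had lower values when PCN 5 was left out, at -0.37 and -0.095 on the log2 scale, and Irf9 also without Vehicle 15 or Vehicle 23. The members' median log2 fold change was 0.22, against 0.014 over 12833 genes. None of the 8 passed edgeR's test, whose adjusted p was 0.998 for each, or had an unadjusted p under 0.05. The background was 0% of genes called and 2.82% with an unadjusted p under 0.05. DESeq2 called 0 of the 8 as well, against 0% of all genes. The authors' deposited table has 0 genes under 0.05 and a lowest adjusted p of 0.1945, and gives each of the 9 members 0.9994. The groups did not overlap for 1 of the 8, Ifit3, against 8.48% of all genes. The positive median rested in part on one library: without PCN 5 it was 0.011, and without PCN 27 it was 0.32. The fibroblast markers had lower fitted values in PCN muscle for 7 of 7 genes, with sums of 282 to 467 CPM in PCN and 349 to 492 CPM in Vehicle. The adipocyte markers were lower for 6 of 6 genes, with a median log2 fold change of -1.20 and sums of 106 to 132 CPM in PCN and 101 to 333 CPM in Vehicle, and the red blood cell markers were lower for 5 of 5, with a median of -0.62. None of these passed the test, and their part in the values of the members and of Ifi27l2a was not tested.

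**Figure D2:**
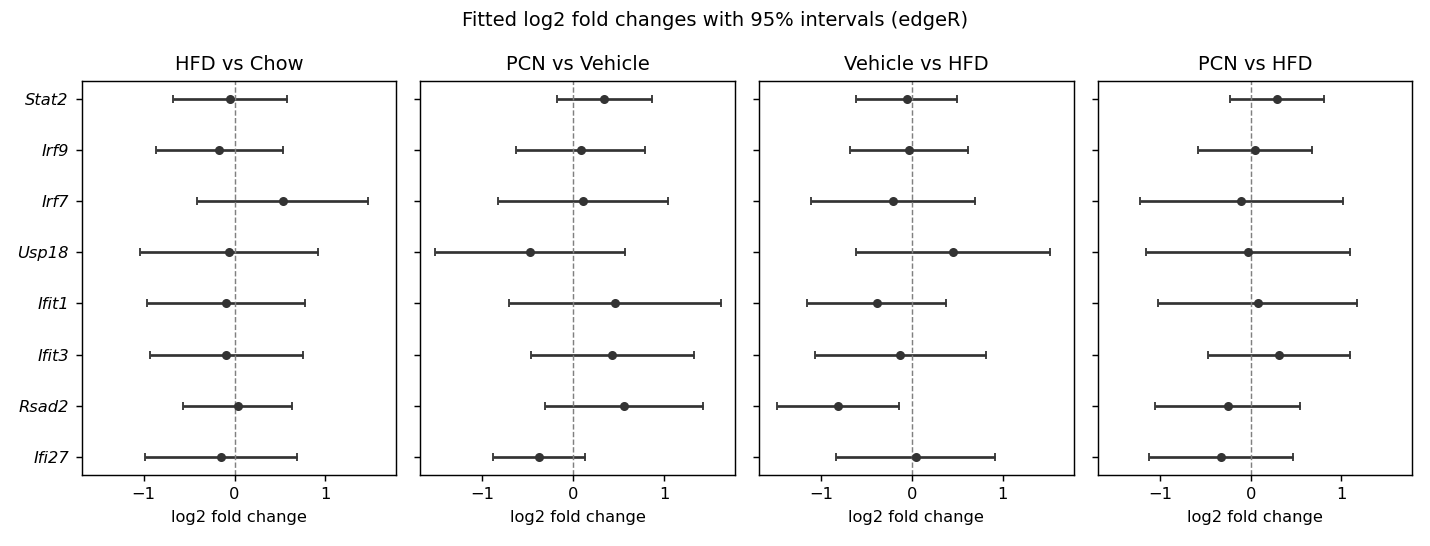
Fitted log2 fold change with its 95% interval from edgeR (x axis) for the 8 tested interferon-stimulated genes (rows) in the 4 comparisons. Of the 32 intervals 31 include 0, and the exception is Rsad2 in Vehicle against HFD, from -1.49 to -0.14.

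Vehicle against HFD sets injected mice beside mice on the same diet for which no injection is given, and PCN against HFD adds the drug to the injections. The counts come from 2 tables joined on gene, and whether both were sequenced and counted together is not given, so injection and table cannot be told apart. These comparisons share the HFD libraries with each other and with HFD against Chow, so the values are given side by side. Against HFD, Stat2 had a log2 fold change of 0.29 ± 0.23 in PCN and -0.06 ± 0.25 in Vehicle, and Rsad2 had -0.25 ± 0.36 in PCN and -0.81 ± 0.30 in Vehicle. Usp18 had -0.03 ± 0.50 in PCN and 0.45 ± 0.48 in Vehicle, and Ifit1 had 0.08 ± 0.49 in PCN and -0.39 ± 0.34 in Vehicle. Ifi27 had -0.33 ± 0.35 in PCN and 0.04 ± 0.38 in Vehicle. The members' median was 0.012 in PCN and -0.092 in Vehicle. These medians hung on single libraries: that of PCN was -0.19 without PCN 5 and 0.22 without PCN 27, and that of Vehicle was 0.071 without HFD 38.

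None of the 8 members passed edgeR's test in either comparison with HFD, where 2.94% of all genes were called for PCN and 1.51% for Vehicle. DESeq2 called 0 members in either, against 6.30% of all genes for PCN and 4.82% for Vehicle, but gave an adjusted p to only 4 members for PCN and to 1 for Vehicle. At an unadjusted p under 0.05 the count was 0 of 8 for PCN, against 20.7% of all genes, and 1 of 8 for Vehicle, against 17.8% of all genes. The groups did not overlap for 1 of 8 members in each comparison, Ifit3 for PCN and Rsad2 for Vehicle, against 27.1% of all genes for PCN and 23.5% for Vehicle. Type I collagen Col1a1, a fibroblast gene, had a log2 fold change of -1.32 ± 0.22 in Vehicle against HFD and passed the test (edgeR adjusted p = 0.0344). No other of the 7 fibroblast markers passed there. Fitted values were lower for 6 of them and higher for 1, and the middle value of the 7 was -0.40 on the log2 scale. The fibroblast marker Dcn overlapped, at 237, 214 and 172 CPM in Vehicle 15, 23 and 55 and 218, 137 and 234 CPM in HFD 4, 30 and 38. The part of fibroblast RNA in the value of Rsad2 was not tested. In the test over all 4 groups, edgeR's adjusted p of the 8 members lay between 0.418 for Rsad2 and 0.970 for Irf9, and 0 of 8 passed, against 0.179% of all genes; DESeq2 also called 0, against 5.52%.

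The other genes of the interferon pathway were read from lists, and 0 genes of the 3 pathway lists passed edgeR's test in any of the 4 comparisons. Among type I targets outside the 9 members, 39 genes were tested; 21 had higher and 18 lower values in HFD against Chow, and 22 had higher and 17 lower values in PCN against Vehicle. In Vehicle against HFD 13 had higher and 26 lower values, with a median log2 fold change of -0.17. Of all genes tested, 50.1% had higher values in HFD against Chow, 52.3% in PCN against Vehicle and 49.9% in Vehicle against HFD. Herc6, a ligase of the Isg15 system in mice, had a log2 fold change of 1.04 ± 0.37 in HFD against Chow (unadjusted p = 0.0183, edgeR adjusted p = 0.635). Ifi27l2a, a relative of Ifi27, had -1.64 ± 0.46 in PCN against Vehicle, with edgeR adjusted p = 0.998. Its libraries held 1.53, 2.08 and 1.53 CPM in PCN and 2.08, 5.75 and 8.18 CPM in Vehicle.

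Eif2ak2, the double-stranded RNA sensor kinase PKR, had a log2 fold change of -0.54 ± 0.20 in Vehicle against HFD (edgeR adjusted p = 0.191). Of the interferon gamma and class II targets, 16 had higher and 6 lower values in PCN against Vehicle, with a median log2 fold change of 0.22. Of all genes tested there, 52.3% had higher values. The list summed to 112 to 133 CPM in PCN, with PCN 5 highest, and to 103 to 117 CPM in Vehicle. In HFD against Chow 9 had higher and 14 lower values, and in Vehicle against HFD 8 and 14. In PCN against HFD 14 had higher and 8 lower values. Of all genes tested, 50.1%, 49.9% and 51.5% had higher values in those comparisons. Gbp4, a guanylate-binding protein gene, had 1.03 ± 0.31 in PCN against Vehicle and 0.98 ± 0.26 in PCN against HFD (edgeR adjusted p = 0.998 and 0.0791). Cxcl9, a chemokine gene induced by interferon gamma, had 1.15 ± 0.45 in HFD against Chow. Tapbp, the class I peptide-loading factor, had -0.57 ± 0.15 in PCN against HFD (edgeR adjusted p = 0.0758).

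**Figure D3:**
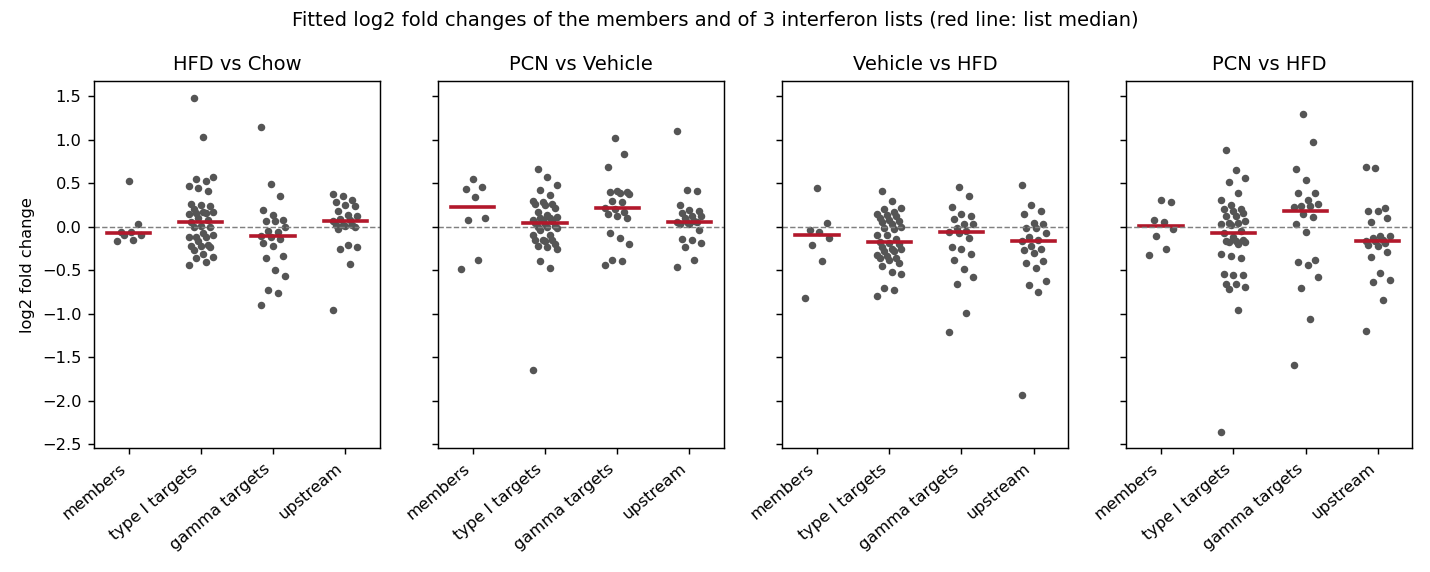
Fitted log2 fold changes (y axis) of the tested members and of the genes of 3 interferon lists (columns of points, red line at the median) in the 4 comparisons. The members' medians are -0.075 in HFD against Chow, 0.22 in PCN against Vehicle, -0.092 in Vehicle against HFD and 0.012 in PCN against HFD, and no point is a gene that passed the test.

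The machinery above the members was present in these muscles. The kinase Jak1 averaged 161 CPM and Tyk2 8.51 CPM, and the receptor chains averaged 10.6 CPM for Ifnar1 and 1.77 CPM for Ifnar2. The repressor Irf2 had a log2 fold change of -0.66 ± 0.22 in Vehicle against HFD (edgeR adjusted p = 0.157), and the sensor-activated factor Irf3 had 0.69 ± 0.22 in PCN against HFD (edgeR adjusted p = 0.121). Irf3 had 15.4, 14.8 and 25.2 CPM in PCN 5, 11 and 27, against 11.30, 12.03 and 11.36 CPM in HFD 4, 30 and 38, and without PCN 27 its log2 fold change was 0.39. The interferon genes Ifnb1, Ifna4, Ifng, Ifnl2 and Ifnl3 were not analysed here.

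Between libraries, the measured levels of the 8 members with enough reads did not move as one block. Over 12 libraries the 28 pairs of these 8 had Pearson correlations of log2 CPM from -0.64 to 0.66. Their median was 0.13 and 19 were positive, and the pairs share library and depth. Counting error alone gives a coefficient of variation of 24.9% for Ifit3 and 26.1% for Usp18, and such noise draws correlations toward 0. Whether the genes vary together beneath that noise was not tested. The summed level of all 9 ran from 19.0 to 25.0 CPM in PCN, 17.7 to 23.9 CPM in Vehicle, 18.0 to 28.2 CPM in HFD and 18.1 to 25.7 CPM in Chow. Ifi27 made up 29.0% of that sum, Stat2 21.5% and Irf9 19.3%. The library with the highest sum in its group was PCN 5, Vehicle 55, HFD 38 and Chow 19.

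**Figure D4:**
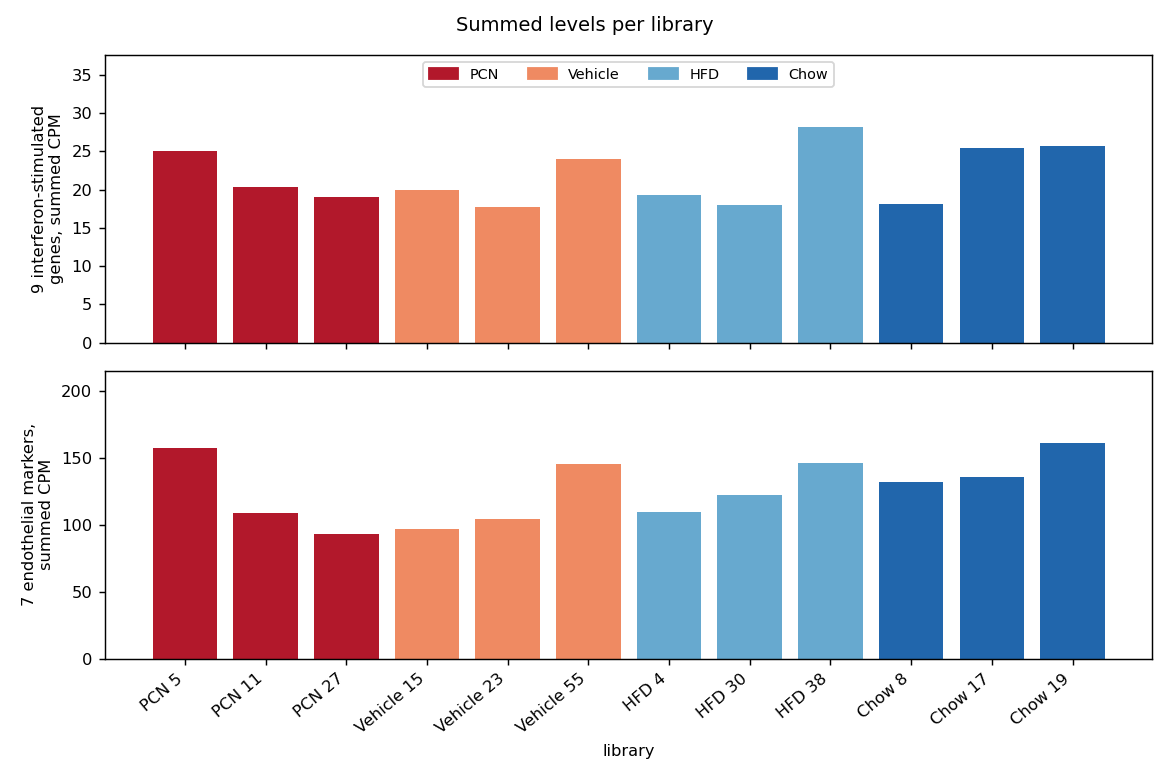
Summed CPM of the 9 interferon-stimulated genes (upper panel) and of 7 endothelial markers (lower panel) in each library, with bars from 0 and groups from left to right PCN, Vehicle, HFD and Chow. PCN 5, Vehicle 55, HFD 38 and Chow 19 are highest in their group in both panels.

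The endothelial markers followed the same order at the top. Their sum was 158 CPM in PCN 5 against 93.4 and 109 CPM in the other PCN libraries, 145 CPM in Vehicle 55 against 96.7 and 104 CPM in the other Vehicle libraries, and 146 CPM in HFD 38 and 161 CPM in Chow 19, each the highest of its group. The same library was highest for both sums in 4 of 4 groups. It was so in 3 of 4 groups when 8 members, without Isg15, were averaged on the log2 scale. The match was not particular to endothelial RNA: the sum of the type I targets outside the members was also highest in those libraries in 4 of 4 groups, at 307 CPM in PCN 5, 297 CPM in Vehicle 55, 306 CPM in HFD 38 and 302 CPM in Chow 19. The interferon gamma targets and the plasmacytoid dendritic cell markers shared the top library in 3 of 4 groups each. Most of the plasmacytoid sum was Tcf4, at 54.8 of 61.0 CPM in PCN 5. Siglech was at most 0.569 CPM and Ccr9 at most 0.0566 CPM in any library, so that sum says little about the cell type. The macrophage markers shared the top library in 1 of 4 groups. Their sums were 88.5 to 102 CPM in PCN, 66.8 to 124 CPM in Vehicle, 66.4 to 172 CPM in HFD and 65.6 to 114 CPM in Chow. This coincidence was seen in the data, and the part of endothelial RNA in the members' levels was not tested.

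The genes whose pattern over the 12 libraries was most like the members' mean log2 level were Lrp4 (Pearson r = 0.87), Osbpl3 (0.85), Manf (0.85), Ccpg1 (0.83), Anpep (0.82), Pcdh19 (0.82), Prox1 (0.81) and Gid8 (0.81), out of 11645 genes searched. By rank (Spearman) their correlations ran from 0.62 for Anpep to 0.87 for Pcdh19. None was in the interferon lists. The members' mean log2 level was taken over 8 members, each centred on its own mean, with Isg15 left out for its few reads. Lrp4, the agrin co-receptor of the neuromuscular junction, was highest in Chow 19 with 17.0 CPM and in PCN 5 with 16.3 CPM. These correlations describe 12 libraries that share depth and tissue make-up.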

How the data were processed

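RNA-seq counts per gene were deposited by the authors as 2 tables, with 24093 genes for HFD and Chow and 24453 for PCN and Vehicle. Per the submitters' processing notes, HISAT2, HTSeq and DESeq2 were used with GRCm38/mm10; no source used here gives their versions, strand setting or counting options. Symbols came from the deposited tables, and 493 and 515 IDs without one were named from the reference. Counts were tested with edgeR 4.0.16 (R 4.3.3), using TMM scaling, a filter at a minimum count of 10 and the quasi-likelihood F test, with p-values adjusted over all tested genes and a threshold of 0.05; intervals are at 95%. Each comparison used its 6 libraries, and the comparisons across tables used the 21976 shared genes. Fold changes and p-values of the authors were read from their deposited table. Libraries held 12770308 to 19739226 counts; counting error alone gives a coefficient of variation from 9.78% (Ifi27) to 73.9% (Isg15). The steps were tested on simulated data. DESeq2 1.42.0, other scalings, filters and thresholds, a fit of all 12 libraries and each library left out were tried. The members, pathway lists and markers were chosen with earlier results of these data known. Named genes were the 9 members, up to 4 genes with the lowest p per pathway list and comparison, and the 8 genes nearest in pattern.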

Additional observations from a re-analysis of the deposited data

How the results depend on the processing

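No member was called under any alternative, and the lowest adjusted p of any was 0.111 (Rsad2 in Vehicle against HFD, without Vehicle 55). DESeq2 gave an adjusted p to 8 members in HFD against Chow and in PCN against Vehicle, to 4 in PCN against HFD and to 1 in Vehicle against HFD. The settings other than leaving out a library kept the direction of all 186 member values. Leaving out a library turned 41 of 192, in 20 of 32 member results; the cause was not tested. No paired analysis was possible because the libraries of different groups share no replicate number.

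Left-out libraries gave these lowest and highest log2 fold changes. In HFD against Chow they were -0.29 and 0.24 for Stat2, -0.44 and 0.063 for Irf9, -0.37 and 0.38 for Ifit1, -0.25 and 0.18 for Ifit3, -0.77 and 0.081 for Ifi27, -0.078 and 0.12 for Rsad2, and -0.40 and 0.25 for Usp18. In PCN against Vehicle they were -0.37 and 0.40 for Irf7, and -0.095 and 0.42 for Irf9. In Vehicle against HFD they were -0.28 and 0.17 for Stat2, -0.53 and 0.072 for Irf7, -0.39 and 0.13 for Irf9, -0.34 and 0.15 for Ifit3, and -0.18 and 0.66 for Ifi27. In PCN against HFD they were -0.57 and 0.19 for Irf7, -0.12 and 0.24 for Irf9, -0.26 and 0.52 for Ifit1, -0.54 and 0.28 for Ifi27, -0.60 and 0.018 for Rsad2, and -0.32 and 0.34 for Usp18. The members' median in PCN against Vehicle ran from 0.011 without PCN 5 to 0.32 without PCN 27. The median in HFD against Chow ran from -0.16 without Chow 8 to 0.11 without Chow 19, that in Vehicle against HFD from -0.20 without Vehicle 55 to 0.071 without HFD 38, and that in PCN against HFD from -0.19 without PCN 5 to 0.22 without PCN 27.

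Over all genes the counts called depended on the setting, and the cause was not tested. In HFD against Chow edgeR called 0, DESeq2 43, edgeR without a filter 237, and left-out libraries 0 to 219 (219 without Chow 19, 7 without Chow 8). In PCN against Vehicle 0 were called and 21 without a filter. In Vehicle against HFD 193 were called, 614 by DESeq2, 571 without a filter, 564 at a threshold of 0.1 and 0 in the fit of all 12 libraries. There, left-out libraries gave 0 (without HFD 30) to 1180 (without Vehicle 55). In PCN against HFD 373 were called, 799 by DESeq2, 672 without a filter and 848 at a threshold of 0.1, and left-out libraries gave 0 (without HFD 4) to 634 (without PCN 11). Over the 4 groups 24 were called, 738 by DESeq2, 185 without a filter and 215 at a threshold of 0.1, and left-out libraries gave 3 (without HFD 38) to 216 (without Chow 19). With a library left out, an alternative chosen after seeing the data, 3 pathway list genes passed edgeR's test: Irf2 (-0.98) and Mavs (-0.62) in Vehicle against HFD without Vehicle 55, and Gbp4 (1.16) in PCN against HFD without PCN 11, with adjusted p of 0.00575, 0.0159 and 0.0446. Isg15, Ifit3 and Usp18 are limited by depth, with at most 29 reads in any library.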

Other observations

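Socs3, a cytokine-induced inhibitor of Jak kinases and one of the upstream genes, differed widely between libraries of a group. It had 12.4, 11.7 and 5.66 CPM in PCN 5, 11 and 27, and 2.20, 3.47 and 8.18 CPM in Vehicle 15, 23 and 55. It had 41.2, 9.65 and 3.06 CPM in HFD 4, 30 and 38, and 5.12, 12.1 and 84.8 CPM in Chow 8, 17 and 19. HFD 4 and Chow 19 lay far above the other libraries of their groups. Socs3 was chosen after its values were seen.

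Ifi27l2a had 1.70, 5.24 and 19.1 CPM in HFD 4, 30 and 38, and 4.47, 5.06 and 0.339 CPM in Chow 8, 17 and 19. Its highest library, HFD 38, was also the highest for Ifi27 and for the macrophage, fibroblast and adipocyte marker sums, which were 172, 934 and 502 CPM there.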
